A study of Rattus norvegicus with 2 samples.

Results

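Heat shock proteins and chaperones were examined as a gene family on expression arrays of the rat paraventricular nucleus. The set took in every non-control probe whose gene name in the files starts with Hsp, Dnaj or Pdia, or with Cct or Bag and a digit, or is Hyou1, Calr or Canx. The rule used names alone, although it was set with earlier results of these data known. It gave 96 of 26269 gene names, carried by 118 probes on 226 spots, and 12 of those probes were spotted 10 times. Of the 96 genes, 92 were well above background on both arrays. The other 4 were Hspb7, Dnajb7, Dnajc5b and Dnajc5g.

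The study concerns hypertension programmed before birth and the methylation of angiotensin receptor DNA in the hypothalamus. The dexamethasone array held RNA of male Sprague Dawley offspring, 12 weeks old, whose mothers had received 200 µg/kg of dexamethasone (a synthetic glucocorticoid) during the third trimester. The control array held RNA of male Sprague Dawley offspring of the same age whose mothers had received vehicle. Each group had 1 array, and the labels do not say whether the RNA on it came from a single rat or from several. No genotype is given for either group.

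Chaperones bind proteins that are not yet folded or have lost their fold, and HSP70 proteins do so in cycles of ATP use. J-domain proteins (Dnaj) deliver clients to HSP70 and trigger its ATP use, and nucleotide exchange factors, among them the Bag proteins, reset it. HSP90 holds steroid receptors, the glucocorticoid receptor among them, in a form that can bind hormone. The chaperonin ring folds actin and tubulin, and protein disulfide isomerases (Pdia) and lectin chaperones act in the endoplasmic reticulum, where secretory neurons of this nucleus fold their peptide precursors.

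Signals are background-subtracted processed intensities in scanner units before scaling. A difference is dexamethasone minus control in log2 units, after each array was set to its own 75th percentile signal, 1480 in the dexamethasone array and 1404 in the control array. Where several probes of a gene were well above background on both arrays, the brightest stood for the gene. No test of the treatment could be made on 1 array per group, and animals could not be compared, so members were sorted by a rule of size, a difference of 2-fold either way. The files give error only among the repeated spots of a probe, where the SD of the spot differences had a median of 0.041 over 1314 probes. Fewer cells of a type and less RNA per cell cannot be told apart in such tissue RNA. The arrays shared a slide, and their place on it and their group cannot be told apart.

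The arrays differed in markers of tissue regions. The marker lists were chosen with earlier results of these data known, so the counts describe these arrays and are no independent support. Of 12 measured markers of cortex and striatum, 9 were more than 2-fold up in the dexamethasone array (most of all Itpka, 5.19, and Neurod2, 4.66), and the summed signal of the list was 95005 in the dexamethasone array and 7976 in the control array. All 8 thalamus markers were lower (most of all Gbx2, -1.19, and Cacna1g, -1.08), with a summed signal of 49246 in the dexamethasone array and 92375 in the control array. All 3 blood markers, with Hbb at 1.5 and Alas2 at 1.45, were at least 2-fold higher, with 210883 in the dexamethasone array and 73849 in the control array. Of 9 measured markers of the nucleus and hypothalamus, 2 passed 2-fold upward and 2 downward in the dexamethasone array. Of these markers 3 were above 0 and 6 below, with a median of -0.31. The summed signal was 112420 in the dexamethasone array and 121390 in the control array. Most of that sum came from Nnat, with 86251 in the dexamethasone array and 105276 in the control array. Avp, the vasopressin gene and one of the lower markers, had 970 in the dexamethasone array and 3464 in the control array, and Oxt, the oxytocin gene, was also lower, by a difference of -1.38. Sst, the somatostatin gene, had 21300 in the dexamethasone array and 7602 in the control array, and Crh, the corticotropin-releasing hormone gene, was also higher, by a difference of 1.39. Otp had 8.26 in the dexamethasone array and 1.92 in the control array and did not meet the rule of being well above background on both arrays. The part of these shifts in the results on chaperones was not tested.

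Most chaperone genes lay close to no difference. Dnajb13 and Hspa1b exceeded 2-fold upward in the dexamethasone array and Pdia2 exceeded it downward, so 2 of 92 members were higher, against 2.73% of all 20144 measured gene names, and 1 was lower, against 3.22%. The other 89 members stayed within 2-fold. With so few members past the rule, their shares are near those of all genes. The median difference was 0.04 over the members and 0.02 over all genes. Differences above 0 were found for 53 members, or 57.6%, and for 52.2% of all genes, which stands beside the counts above 0 given below. At or above the median signal of measured genes, the shares were 58.5% of 65 members and 57.3% of all genes. Below that signal they were 55.6% of 27 members and 47.1% of all genes. A difference of at most 0.25 either way was found for 67 members, or 72.8%, and for 57.3% of all genes. That share was 81.5% of members and 65.8% of all genes at or above the median signal, and 51.9% and 48.8% below it.

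**Figure D1:**
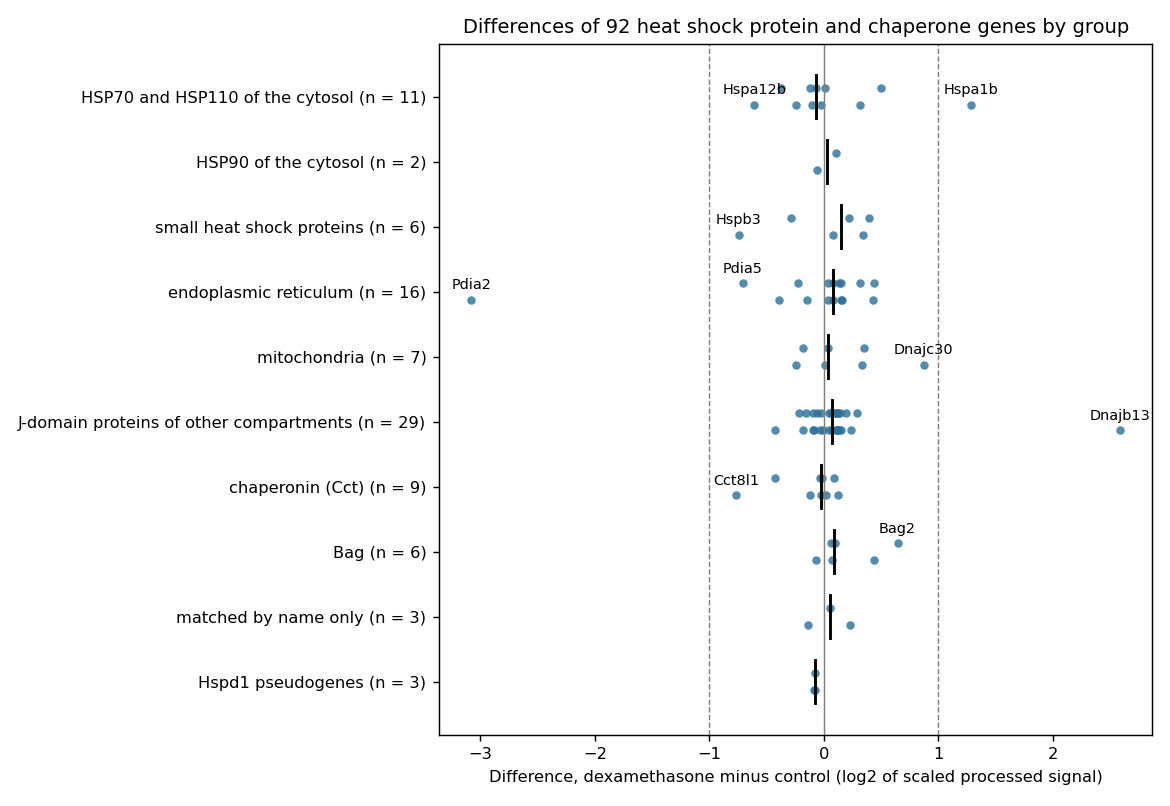
Difference of each measured chaperone gene (dexamethasone minus control, log2 of scaled processed signal, horizontal axis) in 10 groups by compartment or family (vertical axis). Each point is a gene, the black bar is the group's median and dashed lines mark 2-fold. Dnajb13 and Hspa1b lie right of the upper line and Pdia2 lies left of the lower line, while every group's median is between -0.08 and 0.15.

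Dim genes carried the large differences. Of the 65 members at or above the median signal of measured genes, 0 passed 2-fold, against 3.45% of the 10072 gene names in that range. The SD of the differences was 0.20 over these 65 members and 0.44 over all genes of that range. Of the 27 members below the median signal, 2 were at least 2-fold higher, against 3.44% of gene names there, and 1 was at least 2-fold lower, against 5.01%. At a 1.5-fold rule, Dnajc30 and Bag2 joined the higher genes, which made 4 against 6.21% of all gene names. Cct8l1, Hspb3, Pdia5 and Hspa12b joined Pdia2 among the lower genes, which made 5 against 8.55%.

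**Figure D2:**
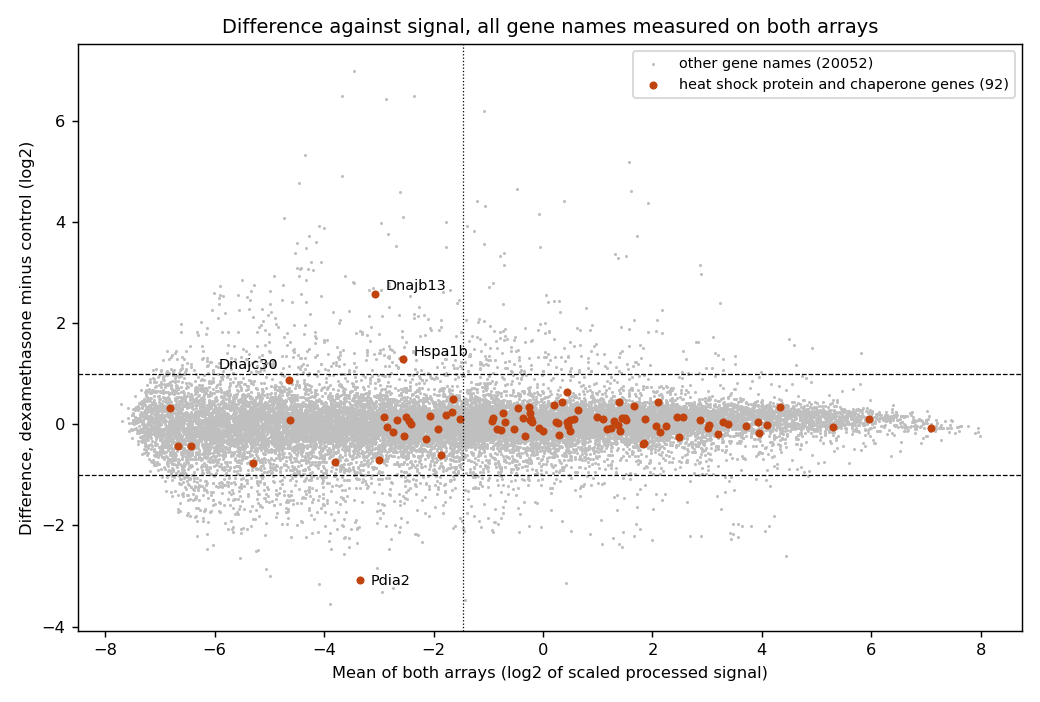
Difference (dexamethasone minus control, log2, vertical axis) against the mean of both arrays (log2 of scaled processed signal, horizontal axis) for all measured gene names (grey) and the 92 chaperone genes (orange). Dashed lines mark 2-fold and the dotted line the median signal of measured genes; the 3 members past 2-fold all lie left of the dotted line.

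HSP70 and HSP110 proteins of the cytosol were the first family examined, with 11 measured genes. Their median difference was -0.07, with 4 above 0 and 7 below. Hspa1b, the stress-inducible HSP70, was the exception in size. Its probe, at chr20:3957864-3957923 of the rn4 assembly on the plus strand, averaged 393 ± 30.5 in the dexamethasone array and 153 ± 11.2 in the control array (SD over 10 spots). The spots ran between 337 and 426 in the dexamethasone array and between 140 and 173 in the control array. The difference was 1.28, or 2.43-fold higher in the dexamethasone array, and it lay between 1.19 and 1.44 over the 10 spots. These are spots of 1 RNA sample on each array and give no spread between animals. With normexp background correction and with no background correction the difference was 0.98, just under 2-fold.

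A second Hspa1b probe, at chr20:3959493-3959552 of rn4 on the same array, had 1.54 in the dexamethasone array and 1.37 in the control array and was not well above background on either. Hspa1b has a near-identical copy, Hspa1a, which is not on the array under that name, so the split of the probe's signal between the copies is uncertain. The neighbouring Hspa1l, a testis-enriched HSP70, had 14.6 in the dexamethasone array and 11.1 in the control array. Its difference of 0.32 came with an SD of 0.27 over 10 spots, and it was -0.03 with normexp correction, so no direction is given for it.

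Hspa8, the constitutive HSP70 of neurons and other cells, had the brightest probe of the family. Its signal was 196949 in the dexamethasone array and 195858 in the control array, a difference of -0.07, and its 4 probes lay between -0.11 and -0.03. Hspa12b, a distant HSP70 relative of endothelial cells, had 328 in the dexamethasone array and 475 in the control array, a difference of -0.61. Its other probe gave 49.7 in the dexamethasone array and 72.1 in the control array, also a difference of -0.61. The probes thus matched in size. Of 7 endothelial and mural markers 2 were above 0 and 5 below, with a median of -0.04 and a summed signal of 7586 in the dexamethasone array and 7084 in the control array, and the largest differences were -0.37 for Pecam1 and 0.33 for Vwf; their part in the Hspa12b value was not tested. Hspa2, an HSP70 best known from male germ cells, had 561 in the dexamethasone array and 377 in the control array, a difference of 0.50.

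Other HSP70-class genes differed less than 1.5-fold. Hspa4l, an HSP110-type exchange factor, had 4671 in the dexamethasone array and 5764 in the control array, a difference of -0.38. Hspa12a, the brain-enriched relative of Hspa12b, had 7631 in the dexamethasone array and 8597 in the control array, a difference of -0.25, and its other probe gave -0.44. Hsph1, the heat-inducible HSP110, had 2019 in the dexamethasone array and 1955 in the control array, a difference of -0.03. Thus the heat-inducible genes Hspa1b and Hsph1 did not share a size of difference. Hspa14, a ribosome-linked HSP70, gave -0.13, and Hspbp1, an HSP70 exchange factor, gave -0.11. Hspa4, the constitutive HSP110-type exchange factor, had 15540 in the dexamethasone array and 14650 in the control array, a difference of 0.01.

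Both cytosolic HSP90 genes were bright and near no difference. Hsp90aa1, the inducible form, had 56942 in the dexamethasone array and 56406 in the control array, a difference of -0.06, with 3 probes between -0.06 and 0.11. Hsp90ab1, the constitutive form, had 95578 in the dexamethasone array and 84132 in the control array, a difference of 0.11, with 3 probes between 0.11 and 0.35. The median of the pair was 0.02 and changed sign under 3 of the scalings tried, with a range of -0.07 to 0.04, so no direction is given for the family.

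Among the regulators and co-chaperones of this system, 21 of 22 listed genes were measured, 9 above 0 and 12 below, with a median of -0.01. Only Fkbp5 was at least 2-fold higher and only Hsf4 at least 2-fold lower. Fkbp5, an HSP90 co-chaperone of steroid receptors and a known target of the glucocorticoid receptor, had 3815 in the dexamethasone array and 1425 in the control array, a difference of 1.34. Hsf4, a heat shock factor best known from the lens, had 310 in the dexamethasone array and 627 in the control array, a difference of -1.09. Hsf1, the main activator of the heat shock response, had 1813 in the dexamethasone array and 2519 in the control array, a difference of -0.55. The RNA differences of Hsf1 and of Hspa1b, one of its classical targets, had opposite signs, and the part of Hsf1 in the Hspa1b value was not tested.

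The J-domain genes that were placed in neither the endoplasmic reticulum nor the mitochondria numbered 32, of which 29 were measured, and they mix cytosolic, nuclear and membrane proteins. Their median was 0.07, with 18 above 0 and 11 below, and 26 of the 29 lay within 0.25 of no difference. The exception was Dnajb13, known in mouse and human as a radial spoke protein of motile cilia and sperm tails. Its single spot, at chr1:157931792-157931851 of rn4 on the minus strand, had 432 in the dexamethasone array and 68.3 in the control array, with scanner errors of 43.2 and 6.99. The difference was 2.59, or 6.0-fold higher in the dexamethasone array, and it lay between 1.85 and 2.61 over the processing settings tried.

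Because Dnajb13 marks motile cilia, genes of ciliated ependyma and choroid plexus were set beside it. Of 7 measured, 6 were above 0 and 0 passed 2-fold, with a median of 0.27. Their summed signal was 372759 in the dexamethasone array and 367920 in the control array, but nearly all of it came from the choroid plexus gene Ttr, with 357096 in the dexamethasone array and 355983 in the control array. The cilia genes Foxj1 and Rsph1 had differences of 0.26 and 0.29, and the choroid plexus gene Kl had 0.39. The largest difference in that list was 0.55, for Tmem212, with 2710 in the dexamethasone array and 1759 in the control array. No gene of the list thus came near the size of the Dnajb13 difference, and the part of ciliated cells in the Dnajb13 value was not tested.

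The other J-domain genes with the largest differences were small in size. Dnajb8, a testis-enriched suppressor of protein aggregation, had 12.5 in the dexamethasone array and 16.02 in the control array, a difference of -0.43 at a dim signal. Dnajc17, a nuclear J-domain protein linked to splicing, had 2561 in the dexamethasone array and 1987 in the control array, a difference of 0.29. Its 3 probes differed in sign, with -0.47, 0.12 and 0.29, the widest span among the 14 genes with several measured probes. In rn4 the probe that gave -0.47 lies on chromosome 6, with a dim 46.6 in the dexamethasone array and 61.3 in the control array, whereas the other probes of Dnajc17 lie on chromosome 3. Dnajc8, a spliceosome-linked J-domain protein, had 14758 in the dexamethasone array and 13572 in the control array, a difference of 0.05 that changed sign under some scalings.

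J-domain proteins of neurons differed by at most 0.22. Dnajc6, or auxilin, the brightest of the group in the control array, which uncoats clathrin-coated vesicles in neurons with HSP70, had 12678 in the dexamethasone array and 13690 in the control array. Its difference of -0.19 had an SD of 0.018 over 10 spots, and 0 of the 10 were higher in the dexamethasone array. The difference was therefore larger than the spread of its spots although far under 2-fold. Dnajc5, the cysteine string protein of synaptic vesicles, had 927 in the dexamethasone array and 853 in the control array, a difference of 0.04. Dnajb2, a neuronal J-domain protein, had 6151 in the dexamethasone array and 5975 in the control array, a difference of -0.03, and its other probe had 417 in the dexamethasone array and 459 in the control array, a difference of -0.22.

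The general partners of cytosolic HSP70 differed as little. Dnaja1 had 12081 in the dexamethasone array and 11563 in the control array, a difference of -0.01. Dnajb1, the heat-inducible HSP40, had 3073 in the dexamethasone array and 2644 in the control array, a difference of 0.14. Dnajb6, a strong suppressor of aggregation, had 4371 in the dexamethasone array and 3938 in the control array, a difference of 0.07. None of these approached the difference of Hspa1b. Neither array had Dnajb7, Dnajc5b or Dnajc5g well above background, with signals of at most 1.91 in the dexamethasone array and at most 6.23 in the control array.

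Of the 6 Bag genes, 5 were above 0 and 1 below, with a median of 0.08. Bag3, the heat-inducible partner of HSP70 and Hspb8 in selective autophagy, averaged 2199 ± 181 in the dexamethasone array and 1540 ± 101 in the control array (SD over 10 spots). Its difference of 0.44 lay between 0.31 and 0.52, and all 10 spots were higher in the dexamethasone array. Bag2, an inhibitor of the HSP70-linked ubiquitin ligase CHIP, had 2520 in the dexamethasone array and 1531 in the control array, a difference of 0.64, or 1.56-fold. Its other probe had 157 in the dexamethasone array and 101 in the control array, a difference of 0.56, so both Bag2 probes gave a like size. It was the largest difference among the 65 members of bright signal.

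The remaining Bag genes were within about 0.10 of no difference. Bag6, which guards proteins bound for membranes, had 5582 in the dexamethasone array and 4940 in the control array, a difference of 0.10. Bag1, the founding exchange factor of the family, gave 0.06 with 3703 in the dexamethasone array and 3364 in the control array. Bag4 gave 0.07 with 278 in the dexamethasone array and 252 in the control array, and its other probe gave -0.02. Bag5 had a difference of -0.07 with an SD of 0.023 over 10 spots, with 3410 in the dexamethasone array and 3389 in the control array.

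**Figure D3:**
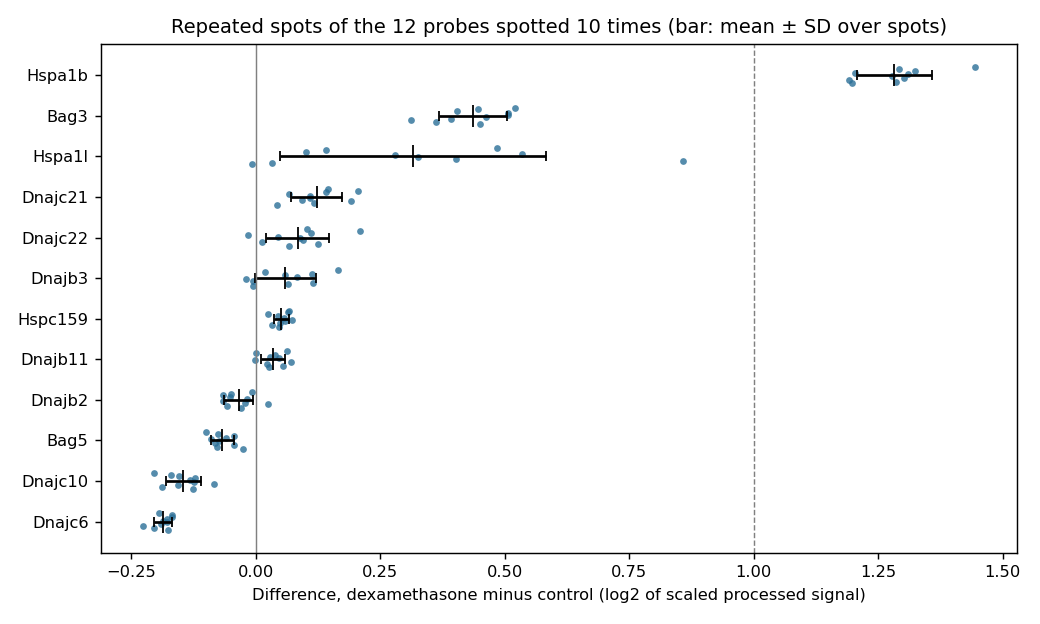
Difference (dexamethasone minus control, log2 of scaled processed signal, horizontal axis) of each spot of the 12 member probes spotted 10 times (vertical axis); bars give the mean and SD over spots of 1 RNA sample per array, and the dashed line marks 2-fold. All 10 spots of Hspa1b lie between 1.19 and 1.44, whereas those of the dim Hspa1l probe spread between -0.01 and 0.86.

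Small heat shock proteins hold unfolding proteins without ATP. Of 7 genes 6 were measured, with 4 above 0, 2 below and a median of 0.15. Hspb1, the widely expressed HSP27, had 1944 in the dexamethasone array and 1408 in the control array, a difference of 0.39. Hspb6, found mainly in muscle and also in astrocytes, had 1391 in the dexamethasone array and 1039 in the control array, a difference of 0.34. Hspb3, a muscle-enriched form, had the opposite sign, with 82.2 in the dexamethasone array and 131 in the control array, a difference of -0.74. Of 7 astrocyte markers 6 were above 0, with a median of 0.25, led by Slc1a2 at 0.75 and Gfap at 0.73. Their summed signal was 166242 in the dexamethasone array and 131172 in the control array. The other probes of Slc1a2 and Gfap gave 0.81 and 1.14, and the 3 probes of Aqp4 ran between 0.09 and 0.47, so these sizes depend on the probe. The part of astrocytes in the Hspb1 and Hspb6 values was not tested.

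Hspb2, which shares a gene neighbourhood with Cryab, had 1346 in the dexamethasone array and 1095 in the control array, a difference of 0.22. Hspb8, the small heat shock protein bound by Bag3, had 304 in the dexamethasone array and 353 in the control array, a difference of -0.29. The differences of Hspb8 and Bag3 thus had opposite signs. Hspb9, a testis form, had 61.5 in the dexamethasone array and 55.2 in the control array, a difference of 0.08. Hspb7, a heart form, had 5.77 in the dexamethasone array and 8.29 in the control array and was well above background in the control array alone. Its scanner errors were 1.69 in the dexamethasone array and 1.63 in the control array, so no direction is given for it.

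The chaperonin subunits that fold actin and tubulin hardly differed. Of 9 Cct genes, 3 were above 0 and 6 below, with a median of -0.02. Among the bright subunits of the ring, Cct3 had 25128 in the dexamethasone array and 24218 in the control array, a difference of -0.02, and Cct6a had 19048 in the dexamethasone array and 18507 in the control array, a difference of -0.03. Cct7 had 11144 in the dexamethasone array and 9951 in the control array, a difference of 0.09. Cct5 had 4351 in the dexamethasone array and 3781 in the control array, a difference of 0.13. The subunits Cct2, Cct4 and Cct8 gave differences of -0.01, -0.12 and 0.02, so all 7 ring subunits of the set lay within 0.13 of no difference.

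The chaperonin relatives outside the common ring were dim and lower. Cct8l1, a chaperonin-like gene that RefSeq now names Cct8l2, had 28.7 in the dexamethasone array and 46.4 in the control array, a difference of -0.77 that was -0.31 with normexp correction. Cct6b, the testis form of Cct6a, had 14.7 in the dexamethasone array and 18.8 in the control array, a difference of -0.43.

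The mitochondrial group held 7 genes, 5 above 0 and 2 below, with a median of 0.04. Hspd1, or HSP60, and Hspe1, or HSP10, form one folding chamber and are neighbours in the genome, read outward from a shared promoter region. In the GRCr8 assembly of RefSeq their starts lie 290 bases apart. The 250 bases before each start are shown here to let the shared heat shock element be seen. Capitals mark the heat shock element, searched on both strands as 3 units that alternate between GAA and TTC, with 2 bases of any kind between units and either unit first. The 2 forms are reverse complements of each other, and the 2 overlapping matches in each promoter were joined.
Hspe1: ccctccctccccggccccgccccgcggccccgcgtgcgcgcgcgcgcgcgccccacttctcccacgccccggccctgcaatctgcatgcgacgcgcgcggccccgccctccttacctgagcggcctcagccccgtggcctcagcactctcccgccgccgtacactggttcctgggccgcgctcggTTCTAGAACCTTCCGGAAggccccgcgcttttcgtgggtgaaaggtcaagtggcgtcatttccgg
Hspd1: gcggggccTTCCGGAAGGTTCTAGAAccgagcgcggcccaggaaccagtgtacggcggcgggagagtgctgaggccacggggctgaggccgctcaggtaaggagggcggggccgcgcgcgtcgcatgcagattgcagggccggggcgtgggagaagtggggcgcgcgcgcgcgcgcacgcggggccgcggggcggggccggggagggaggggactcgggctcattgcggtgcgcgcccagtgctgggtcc
The Hspe1 sequence is chr9:64084077-64084326 on the plus strand and the Hspd1 sequence is chr9:64084038-64084287 on the minus strand, and they share 211 bases. The capitals are therefore the same genomic stretch read from both sides.

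The pair differed in sign. Hspe1 had 33519 in the dexamethasone array and 25218 in the control array, a difference of 0.33, and its other probe gave 0.27. Hspd1 had 21380 in the dexamethasone array and 22959 in the control array, a difference of -0.18, from 1 probe that shares a run of 23 bases with the probe of the pseudogene Hspd1-ps2. The 3 Hspd1 pseudogenes on the array lay between -0.09 and -0.08. Heat shock elements of this form were found in 4 of 74 member promoters in the RefSeq table, or 5.41%, and in 0.663% of all 33469 promoters. Hspd1 and Hspe1, which share their stretch, count as 2 of the 4. The other 2 were those of Hspa8, with 2 matches, and of Hsph1, whose differences of -0.07 and -0.03 are given above. Hspa1b was not among the 74 promoters and was not searched. A match of letters is a description and not a binding site.

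Other mitochondrial members spread more widely. Dnajc30, which acts in the respiratory chain, had 80.5 in the dexamethasone array and 41.8 in the control array, with scanner errors of 8.26 and 4.47. Its difference of 0.87, or 1.83-fold, was 0.36 with normexp correction and thus leaned on the background handling. Dnajc15, a J-domain protein of the inner membrane import motor, had 5278 in the dexamethasone array and 3925 in the control array, a difference of 0.35. Hspa9, or mortalin, the HSP70 of the matrix, had 1770 in the dexamethasone array and 1636 in the control array, a difference of 0.04. Dnaja3, its J-domain partner, gave -0.24, with 234 in the dexamethasone array and 263 in the control array. Dnajc11, a protein of cristae organisation, gave 0.01.

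The endoplasmic reticulum group was the largest compartment group, with all 16 genes measured, 11 above 0 and 5 below, and a median of 0.08. Its extreme was Pdia2, a protein disulfide isomerase best known from pancreas. The probe that measured it is a 60-base sequence at chr10:15463439-15463498 of rn4 on the minus strand, shown because the largest difference among the members rests on this single spot.
Pdia2 probe: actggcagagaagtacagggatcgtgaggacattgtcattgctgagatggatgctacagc
Pdia2 had 50.3 in the dexamethasone array and 403 in the control array, with scanner errors of 5.25 and 40.3. The difference was -3.08, or 8.44-fold lower in the dexamethasone array. It was -2.17 with normexp correction and lay between -3.08 and -2.17 over the settings tried.

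The other disulfide isomerases did not share this size. Pdia5 had 144 in the dexamethasone array and 223 in the control array, a difference of -0.71, or 1.63-fold lower. Pdia3, the isomerase that works with calnexin and calreticulin, had 2151 in the dexamethasone array and 1935 in the control array, a difference of 0.08. Pdia4 had 371 in the dexamethasone array and 316 in the control array, a difference of 0.15. Pdia6, which also restrains stress sensors, had 9146 in the dexamethasone array and 7811 in the control array, a difference of 0.15. Within the family Pdia2 and Pdia5 were lower, and the other 3, the dim Pdia4 among them, were slightly above 0.

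Hspa5, or BiP, is the HSP70 of the endoplasmic reticulum and the classical reporter of its stress. Its promoter is shown because it holds the endoplasmic reticulum stress element, through which the unfolded protein response raises these genes. The 250 bases before its start, chr3:38452766-38453015 of GRCr8 on the plus strand, are from RefSeq, and capitals mark the match, CCAAT and CCACG with 9 bases of any kind between them, at 43 to 25 bases before the start.
Hspa5: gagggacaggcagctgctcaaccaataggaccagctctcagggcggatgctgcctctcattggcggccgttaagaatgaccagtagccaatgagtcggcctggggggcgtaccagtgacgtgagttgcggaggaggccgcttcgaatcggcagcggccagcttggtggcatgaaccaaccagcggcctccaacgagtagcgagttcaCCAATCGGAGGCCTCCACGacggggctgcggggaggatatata
Hspa5 had 22741 in the dexamethasone array and 21007 in the control array, a difference of 0.04 that changed sign under some scalings, between -0.03 and 0.06. No direction is given for it.

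The same element, or its second form, ATTGG and CCACG with 1 base between them, was found on either strand in 6 of 14 promoters of this group, in 8.11% of all member promoters and in 0.108% of all promoters. Hsp90b1, the HSP90 of this compartment, has 2 matches, and it had 7412 in the dexamethasone array and 5213 in the control array, a difference of 0.43. Calr, the calcium-binding lectin chaperone calreticulin, had 4522 in the dexamethasone array and 3163 in the control array, a difference of 0.44. Dnajc3, a J-domain partner of BiP that also restrains the kinase PERK, had 1203 in the dexamethasone array and 918 in the control array, a difference of 0.31. Canx, the membrane-bound partner of calreticulin, had 274 in the dexamethasone array and 235 in the control array, a difference of 0.15. Hyou1, an exchange factor for BiP with 2 matches to the second form, ran the other way, with 4612 in the dexamethasone array and 5728 in the control array, a difference of -0.39. The 6 genes with the element thus spread between -0.39 and 0.44 and did not move as a block.

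The rest of the compartment group was made up of J-domain proteins and Hspa13. Dnajc10, a reductase that helps to clear misfolded proteins, averaged 6217 ± 239 in the dexamethasone array and 6523 ± 198 in the control array (SD over 10 spots), a difference of -0.15 with 0 of 10 spots higher. Dnajb9, an inducible partner in the clearance of misfolded proteins, had 1083 in the dexamethasone array and 1206 in the control array, a difference of -0.23. Dnajb11, a soluble partner of BiP, had 2041 in the dexamethasone array and 1890 in the control array, a difference of 0.04 with 8 of 10 spots higher. The Dnajb11 difference lay between 0.004 and 0.05 over the processing settings tried. These 3 partners thus lay between -0.23 and 0.04. Dnajb12, a J-domain protein of the membrane, had 1299 in the dexamethasone array and 1163 in the control array, a difference of 0.08. Hspa13, a microsomal HSP70, had 4215 in the dexamethasone array and 3658 in the control array, a difference of 0.13.

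Genes of the unfolded protein response outside the set stayed within 2-fold too. Of 23 listed genes 21 were measured, 13 above 0 and 8 below, with a median of 0.02. The range was -0.53 to 0.26 over the brightest probes, and another probe of Atf6 gave 0.34. Eif2ak3, the stress kinase PERK, had 712 in the dexamethasone array and 973 in the control array, a difference of -0.53. Atf4, a transcription factor translated when PERK is active, had 27821 in the dexamethasone array and 33943 in the control array, a difference of -0.36. Derl3, a component of protein clearance from the compartment, had 1738 in the dexamethasone array and 1375 in the control array, a difference of 0.26. Its other probe gave -0.07, so its probes differed in sign. Neither BiP nor these regulators passed the size rule.

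A palindromic glucocorticoid response element, AGAACA and TGTTCT with 3 bases between them, was also searched in the same windows on both strands. It was found in 0 of the 74 member promoters and in 0.012% of all promoters, which says only that these letters are not in these windows and again does not cover Hspa1b.

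Genes with several measured probes show how far a value depends on the probe. For 10 of the 14 all probes had one sign and for 4 they did not, and the span between probes had a median of 0.08. It was at most 0.25 in 12 of the 14, the exceptions being Dnajc17, whose probes map to different chromosomes, and Dnajc14. The 3 genes past 2-fold had 1 measured probe each, so this check covers none of them.

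**Figure D4:**
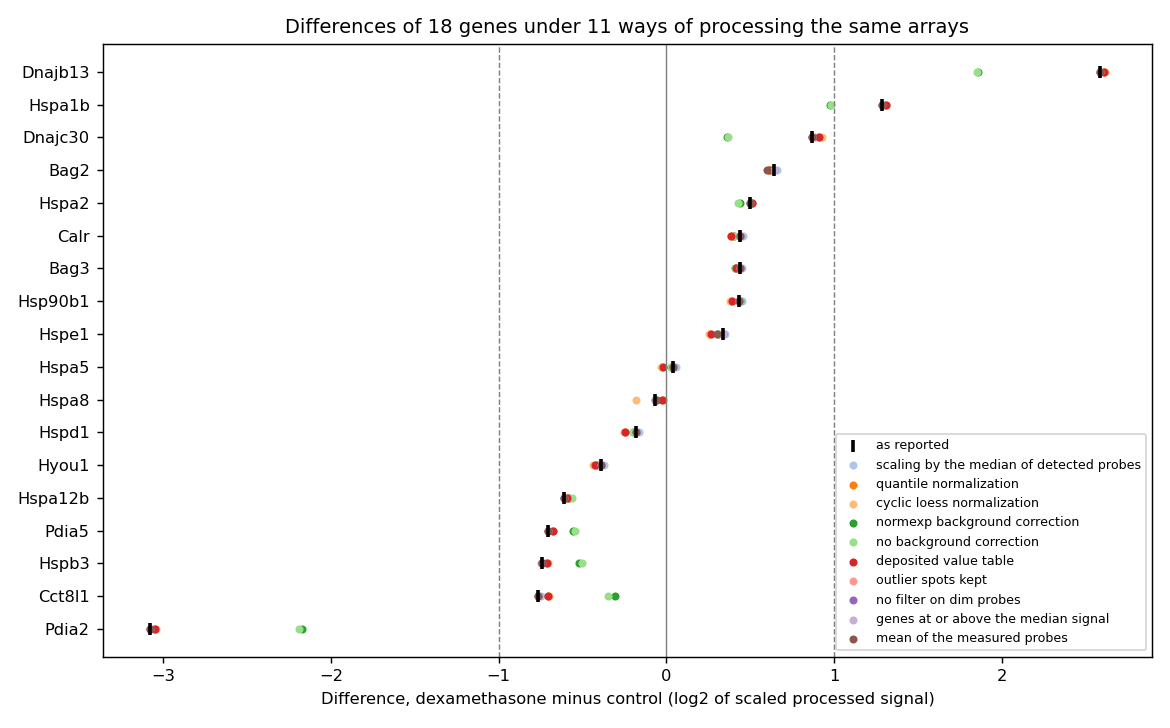
Difference (dexamethasone minus control, log2 of scaled processed signal, horizontal axis) of 18 chaperone genes (vertical axis) as reported and under 10 other ways of processing the arrays; dashed lines mark 2-fold. With normexp or no background correction Hspa1b falls to 0.98 and Pdia2 comes to about -2.17, while the bright genes in the middle hardly shift.

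Finally, 3 members belong to the set by name alone. Hspb11, now Ift25 in RefSeq, a part of ciliary transport, had 958 in the dexamethasone array and 778 in the control array, a difference of 0.22. Hspc159, now Lgalsl, a galectin-related gene, had 1308 in the dexamethasone array and 1197 in the control array, a difference of 0.05. Hspbap1, which codes for a protein bound to HSP27, had 1411 in the dexamethasone array and 1472 in the control array, a difference of -0.14. Without these 3 and the 3 pseudogenes, an alternative chosen after seeing the data, the median of the members was 0.05 and the same 3 genes passed 2-fold.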

How the data were processed

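Linear spot intensities were taken from the scanner output that the authors deposited. Feature Extraction 10.7.1.1 made them, per the file headers (version 9.5.1.1 in the submitters' processing notes), and the processed intensity is already background-subtracted. Probe positions are on rn4, per the file headers. Per the labels, RNA was amplified and labelled with Cy3 on 1-colour arrays. A second deposited table holds intensity values after a further step by the authors that no source used here gives, and it served as an alternative.

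For each probe, log2 processed signals were averaged over its spots without an outlier mark (249 spots left out in the dexamethasone array, 267 in the control array, 0 of them of members), and each array's 75th percentile over 30367 non-control probes was subtracted. No spot was saturated. A probe counted as measured where over 0.5 of its spots were well above background, which held for 23745 probes in the dexamethasone array and 24139 in the control array. The number of arrays, 1 per group, limits the precision. Samples were grouped by the labels' treatment. All 96 member names were found in the RefSeq table of GRCr8, used for names and neighbours, and 74 had a promoter sequence there.

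Named members were those past 2-fold, the 3 largest differences and the brightest control probe of each group, and every measured endoplasmic reticulum, Cct and Bag gene; of other lists, the 3 (pathways) or 2 (markers, in the lists shown) largest. Members named beyond that rule, and genes named to complete a comparison, were chosen after their values were seen. Members and lists were chosen with earlier results of these data known. Alternatives used limma 3.58.1 in R 4.3.3 (normexp with an offset of 50, quantile, cyclic loess); the rest ran in Python 3.11.15 with pandas 2.3.3 and was tested on simulated data. Motifs were searched in 250 bases before each RefSeq start.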

Additional observations from a re-analysis of the deposited data

How the results depend on the processing

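Of the members, 1 was at least 2-fold higher with normexp background correction and 1 with no background correction, against 2 as reported, because Hspa1b came to 0.98. With genes at or above the median signal alone, 0 were higher and 0 lower, since that filter left out Dnajb13, Hspa1b and Pdia2. With no filter on dim probes 2 were lower, as Dnajc5b, not well above background on either array, was added. The 1.5-fold rule gave 4 higher and 5 lower. Every other alternative run (cyclic loess or quantile normalization, the median of detected probes as the scale, the deposited value table, outlier spots kept, the mean of the measured probes, and leaving out pseudogenes and genes matched by name only) kept 2 higher and 1 lower. The median difference of the members lay between 0.01 and 0.06 over the alternatives, and between 48 and 55 of 92 members were above 0 over the scalings. None of Dnajb13, Hspa1b and Pdia2 changed sign under any alternative run; small differences of Cct2, Cct8, Dnaja1, Dnajc8, Dnajc11, Dnajc14, Dnajc17, Hsp90aa1, Hspa1l, Hspa4 and Hspa5 did under at least 1. Over all gene names the counts were 549 higher and 649 lower as reported, 314 and 262 with normexp correction, 309 and 264 with no background correction, and 1205 and 1399 with no filter on dim probes. Dnajb13, Hspa1b and Pdia2 all lie below the median signal of measured genes. No paired analysis was possible because there was 1 array per group. No replicate could be left out for the same reason. Signal over background limits Hspa1l, Cct6b, Cct8l1 and Dnajb8, whose signals were under 50 in both arrays.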

Other observations

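Genome neighbours of the members were looked up by gene order in GRCr8. Those of Dnajb13 and Hspa1b, the members at least 2-fold higher, were picked for report after the values were seen. Dnajb13 lies between Ucp2 and Coa4. Ucp2, a mitochondrial uncoupling protein, had 475 in the dexamethasone array and 170 in the control array, a difference of 1.40, and Coa4, a cytochrome oxidase assembly factor, had 1405 in the dexamethasone array and 1165 in the control array, a difference of 0.19. One neighbour of Dnajb13 thus also passed 2-fold in the same direction and the other did not, where 2.73% of all measured gene names were at least 2-fold higher. Such neighbours also lay beside members with small differences. For example, Dnajc10, at -0.15, lies between Pde1a at 1.13 and Frzb at 1.89, and Dnajc4, at -0.10, lies beside Vegfb at 1.81 and Nudt22 at -0.12. Neu1, a lysosomal sialidase beside Hspa1b, had 1014 in the dexamethasone array and 1377 in the control array, a difference of -0.52, opposite in sign to Hspa1b. Hspa1a, on the other side of Hspa1b, is not on the array under that name.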
